A study of Rattus norvegicus with 36 samples.

Results

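The 6 genes described here encode liver enzymes that detoxify reactive epoxides and carbonyl compounds: the epoxide hydrolases Ephx1 and Ephx2, the aldo-keto reductases Akr7a3, Akr7a2 and Akr1a1, and the carbonyl reductase Cbr1. They were chosen by name, with earlier results of these data known, and make up 6 of the 14217 genes that the platform annotation names. Each was read by exactly 1 probe set assigned to it alone. The probe sets were 1387669_a_at for Ephx1 (chromosome 13), 1369663_at for Ephx2 (chromosome 15), 1368121_at for Akr7a3, 1367843_at for Akr7a2 and 1398753_at for Akr1a1 (all on chromosome 5), and 1368037_at for Cbr1 (chromosome 11). Liver RNA came from male Harlan Sprague Dawley rats, an outbred stock, that were 7 weeks old when dosing began. They were gavaged on each of 5 days with PBDE47, a polybrominated diphenyl ether used as a flame retardant, at 485, 48.5, 4.85, 0.485 or 0.0485 mg/kg in corn oil, and the control rats received corn oil alone. Left liver lobes were taken one day after the last dose and measured on 36 Affymetrix arrays, 6 per group. The labels number the replicates but do not say outright that each array is a separate animal, so the p-values measure the spread between these arrays. Every dose was compared with the same 6 vehicle arrays, and the comparisons therefore share them.

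Epoxide hydrolases add water to the strained ring of an epoxide and give a less reactive diol. The microsomal enzyme, made from Ephx1, acts mainly on epoxides that cytochrome P450 enzymes form from foreign compounds, and it is a classical inducible enzyme of rat liver. The soluble enzyme, made from Ephx2, mainly hydrolyses epoxides of fatty acids, including those formed from arachidonic acid. Aldo-keto reductases use NADPH to reduce aldehydes and ketones to alcohols, and Cbr1, a short-chain dehydrogenase of another protein fold, reduces quinones, prostaglandins and other carbonyl compounds. The transcription factor NRF2 drives many enzymes of this kind through antioxidant response elements, the aryl hydrocarbon receptor and the nuclear receptors CAR, PXR and PPARA drive others, and Akr7a3 is known in rat liver as the antioxidant-inducible aflatoxin aldehyde reductase.

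Promoter sequences are shown for Akr7a3 and Akr7a2, neighbouring genes whose signals moved together, and for both listed starts of Ephx1, the gene with the lowest adjusted p at the top dose. Of the 6 genes, 5 had entries in the RefSeq promoter table of the GRCr8 assembly, with 6 starts in all. Each sequence is the 250 bases before a transcription start, read 5′ to 3′ on the gene's own strand, with motif matches in capitals. The windows are chr5:156876471-156876720 (plus strand) for Akr7a3, chr5:156835339-156835588 (plus strand) for Akr7a2, and chr13:95275853-95276102 and chr13:95263118-95263367 (both minus strand) for the first and second starts of Ephx1.
Akr7a3: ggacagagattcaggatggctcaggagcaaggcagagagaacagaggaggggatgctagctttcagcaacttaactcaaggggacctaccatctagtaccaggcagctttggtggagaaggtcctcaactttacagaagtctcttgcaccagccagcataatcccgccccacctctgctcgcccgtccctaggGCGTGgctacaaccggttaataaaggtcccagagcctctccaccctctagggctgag
Akr7a2: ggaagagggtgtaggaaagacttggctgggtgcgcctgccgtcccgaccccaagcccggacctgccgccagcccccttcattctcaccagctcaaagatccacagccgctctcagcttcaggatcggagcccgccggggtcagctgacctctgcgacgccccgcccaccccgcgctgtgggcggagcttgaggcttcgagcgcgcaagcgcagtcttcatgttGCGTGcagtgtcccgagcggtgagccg
Ephx1, first start: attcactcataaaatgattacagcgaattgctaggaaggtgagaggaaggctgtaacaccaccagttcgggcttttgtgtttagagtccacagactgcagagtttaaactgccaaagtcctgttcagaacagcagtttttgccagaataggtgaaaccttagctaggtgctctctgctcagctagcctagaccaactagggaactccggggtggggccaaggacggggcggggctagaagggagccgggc
Ephx1, second start: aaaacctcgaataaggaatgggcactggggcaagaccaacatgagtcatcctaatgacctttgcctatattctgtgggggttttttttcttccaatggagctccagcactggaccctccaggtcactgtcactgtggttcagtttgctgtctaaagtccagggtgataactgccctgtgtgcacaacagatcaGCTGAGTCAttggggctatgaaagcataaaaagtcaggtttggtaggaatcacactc
Capitals mark GCGTG, the core bound by the aryl hydrocarbon receptor, and GCNNNGTCA, the reverse complement of the antioxidant response element core TGACNNNGC. Both strands were searched. The match in Akr7a3 lay 57 to 53 bases before the start, and that in Akr7a2 lay 27 to 23 bases before it. The match in the second Ephx1 promoter, GCTGAGTCA, lay 57 to 49 bases before that start. Among 33469 rat promoters of this length, 25.9% held GCGTG or its reverse complement and 10.1% held TGACNNNGC or its reverse complement. The Cbr1 promoter (chr11:46346155-46346404, plus strand) held 3 matches to GCGTG or its reverse complement, of which a pair overlapped. The Akr1a1 promoter (chr5:135346232-135346481, minus strand) held neither core. DR4 and DR1, direct repeats of the nuclear receptor half-site AGGTCA with 4 bases or 1 base between them, both half-sites matched in full, occurred in 0.00299% and 0.0508% of all promoters and in none of these 6. A match is a description of the letters and is not evidence of binding.

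Values are log2 signals, and each change is a log2 difference between group means with its standard error (SE) from limma. A gene was called at a Benjamini-Hochberg adjusted p below 0.05 over 31042 probe sets. Levels of different probe sets cannot be set against each other. The 36 arrays had medians of 5.31 to 5.38, and arrays of a group correlated at 0.990 to 0.997. The array of replicate 6 at 4.85 mg/kg stood apart from its group, with a mean squared deviation over all probe sets of 0.0567 against 0.0401 for the next array. For Gapdh and Actb, the 3′ signal minus the 5′ signal, a sign of RNA quality, had overlapping ranges in vehicle and every dose group. The tissue label was checked on 8 hepatocyte markers, which averaged 14.35 to 14.39 on the vehicle arrays, with albumin (Alb) at a mean of 15.05 over all 36.

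PBDE47 raised the liver signal of 5 of the 6 genes at the 2 highest doses, and Ephx2 was not called at either. At 485 mg/kg the rises were 3.21-fold for Akr7a3, 2.13-fold for Ephx1, 1.63-fold for Cbr1, 1.39-fold for Akr7a2 and 1.28-fold for Akr1a1. At 48.5 mg/kg the same 5 genes were called at 1.70-, 1.65-, 1.20-, 1.21- and 1.14-fold, in that order. Of the 6 genes, 5 were called higher at 48.5 mg/kg, where 2.57% of all probe sets were, and at 485 mg/kg 5 of 6, where 7.81% were. None of the 6 was called lower at either dose, where 0.821% and 7.22% of probe sets were. For these same 5 genes every treated array lay above every vehicle array at both doses, as was true of 1.52% of probe sets at 48.5 mg/kg and 4.30% at 485 mg/kg. These shares include dim probe sets. Among the 15512 probe sets with a mean above 5.35, 1408 were called in either direction at 48.5 mg/kg and 4844 at 485 mg/kg. Among all 31042 these counts were 1052 and 4665. The median change of the 6 genes was 0.27 at 48.5 mg/kg and 0.59 at 485 mg/kg, against -0.01 for all probe sets at each dose. Because the genes were chosen with earlier results of these data known, such counts and medians describe them and are not an independent test. A moderated F test over the 5 doses called 5 of 6 genes (adjusted p from 9.70e-14 for Ephx1 to 4.70e-07 for Akr1a1), where it called 13.0% of probe sets, and gave Ephx2 an adjusted p of 0.968. The Ephx2 signal was low on most arrays and its fitted changes were imprecise (SE 0.64), so a change in this gene is not excluded.

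**Figure D1:**
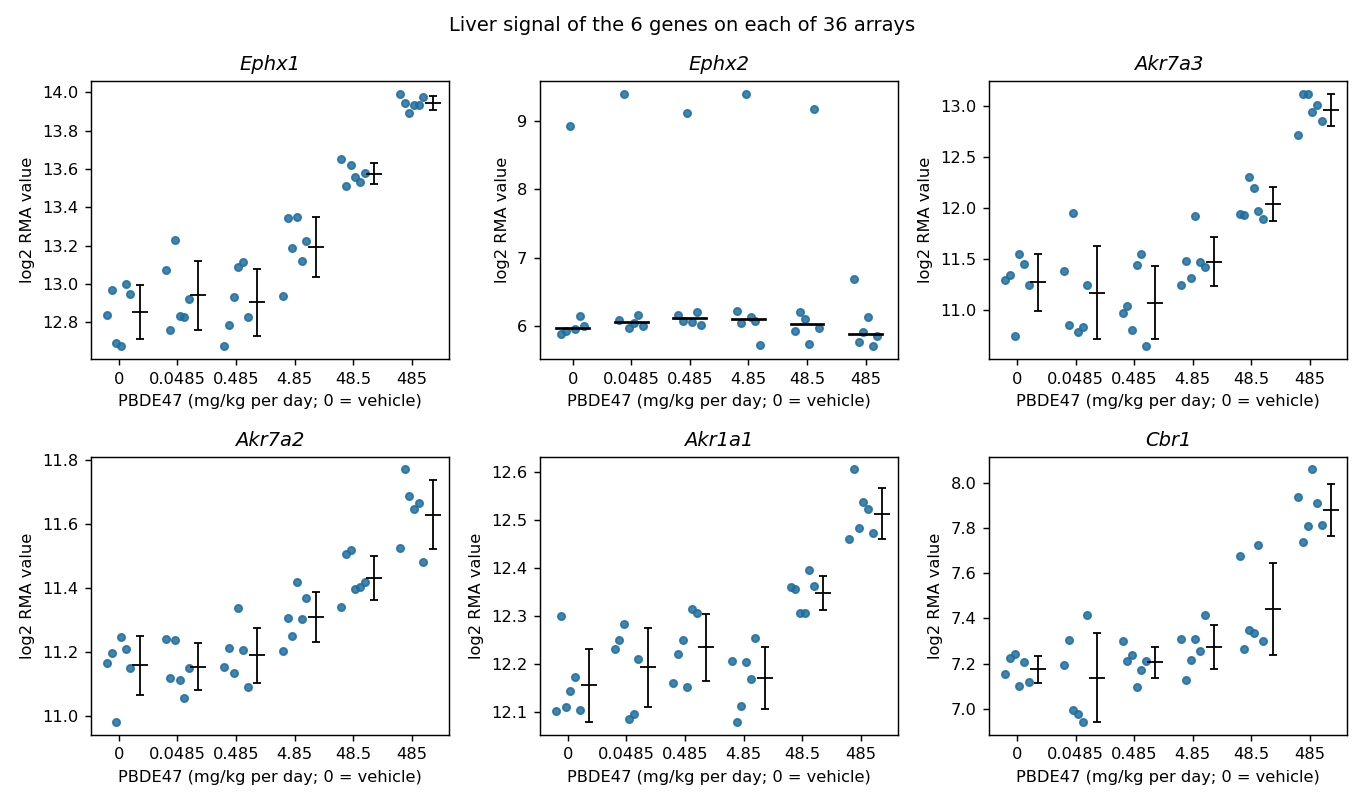
Log2 RMA value of each gene on each of the 36 arrays (points), by daily PBDE47 dose in mg/kg, with 0 for vehicle. Crosses show the group mean ± SD, except for Ephx2, where the line is the group median; 5 genes rise over the 2 highest doses, and Ephx2 has 1 array near 9 in each group but that of 485 mg/kg.

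Ephx1, the microsomal enzyme, rose at both high doses and again between them. Its vehicle arrays lay between 12.68 and 13.00, with a median of 12.89. The arrays of 4.85 mg/kg ran from 12.94 to 13.35 with a median of 13.20. They rose to 13.51, 13.57 and 13.65 (lowest, median and highest) at 48.5 mg/kg and to 13.89, 13.94 and 13.99 at 485 mg/kg. The groups of 4.85, 48.5 and 485 mg/kg did not overlap one another, while that of 4.85 mg/kg overlapped the vehicle range. The changes from vehicle were 0.72 ± 0.08 (SE, n = 6 per group) at 48.5 mg/kg, with an adjusted p of 7.60e-08 in limma, and 1.09 ± 0.08 at 485 mg/kg, with 4.49e-13. The step from 4.85 to 48.5 mg/kg was 0.38 (adjusted p = 0.00773) and that from 48.5 to 485 mg/kg was 0.37 (adjusted p = 0.00241). At 4.85 mg/kg the change of 0.34 ± 0.08 had an unadjusted limma p of 0.000118 and an adjusted p of 0.178, and was not called. Adjusted p ran from 0.0551 to 0.538 there when single arrays were left out. The spread between arrays also narrowed, from an SD of 0.14 in vehicle to 0.05 at 48.5 mg/kg and 0.03 at 485 mg/kg (n = 6 each), a difference that was not tested.

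The values of Ephx2, the soluble enzyme, fell into separate clusters. On 31 arrays its signal lay between 5.70 and 6.69, not far above the array medians, and on 5 arrays it lay between 8.94 and 9.40. The 5 high arrays were 1 from each group except 485 mg/kg: vehicle replicate 3 at 8.94, replicate 2 of 0.0485 mg/kg at 9.40, replicate 3 of 0.485 mg/kg at 9.12, replicate 3 of 4.85 mg/kg at 9.40 and replicate 5 of 48.5 mg/kg at 9.17. The empty interval between the clusters was 2.25 on the log2 scale, or 4.76-fold, and 9 of 31042 probe sets (0.029%) had an interval that wide anywhere in their ordered values. Group medians stayed close together, at 5.97 in vehicle, 6.06, 6.12, 6.10 and 6.03 over the next 4 doses and 5.88 at 485 mg/kg.

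Because of those single arrays, the Ephx2 group means say little about dose. The fitted change at 485 mg/kg was -0.47 ± 0.64 (SE, n = 6 per group; 95% interval -1.77 to 0.83; limma adjusted p = 0.722), and it was 0.03 without vehicle replicate 3. At 48.5 mg/kg it was 0.05 ± 0.64 (adjusted p = 0.986), and -0.49 without replicate 5 of that dose. The interval at 485 mg/kg includes changes in either direction as large as those called in Cbr1, Akr7a2 and Akr1a1.

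The pair of AKR7 genes rose together, and Akr7a3 by more. Akr7a3 reduces the dialdehyde formed from aflatoxin B1, and Akr7a2 reduces succinic semialdehyde among other aldehydes. In the RefSeq gene table no protein-coding gene lies between them. Akr7a3 ran from 10.75 to 11.55 in vehicle (median 11.32), from 11.90 to 12.31 at 48.5 mg/kg (median 11.95) and from 12.71 to 13.12 at 485 mg/kg (median 12.97). Its 3 groups did not overlap. The changes from vehicle were 0.77 ± 0.16 (SE, n = 6 per group; limma adjusted p = 0.00333) and 1.68 ± 0.16 (adjusted p = 3.40e-10). The last step, from 48.5 to 485 mg/kg, was 0.92 (adjusted p = 0.000212). The step from 4.85 to 48.5 mg/kg was 0.56 and was not called (adjusted p = 0.0726), but it was called with the filter on low values (adjusted p = 0.0422) and with only the 12 arrays compared (0.0275). Replicate 4 of 4.85 mg/kg, at 11.93, lay within the range of the 48.5 mg/kg arrays. Without that array the step was 0.65 with a limma adjusted p of 0.0360. Replicate 3 of the lowest dose, 0.0485 mg/kg, lay within the 48.5 mg/kg range as well, at 11.95.

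Akr7a2 moved over a narrower range. It ran from 10.98 to 11.25 in vehicle (median 11.18), from 11.34 to 11.52 at 48.5 mg/kg (median 11.41) and from 11.48 to 11.77 at 485 mg/kg (median 11.66). Both dose groups lay above vehicle, but they overlapped each other. Its changes from vehicle were 0.27 ± 0.05 (SE, n = 6 per group; limma adjusted p = 0.00217) and 0.47 ± 0.05 (adjusted p = 3.18e-08). The last step was 0.20 (adjusted p = 0.0238), and that call was lost with quantile normalization (0.16, adjusted p = 0.108), with only the 12 arrays compared (adjusted p = 0.107), and without any one of replicates 1, 4 or 5 of 48.5 mg/kg or replicates 2 or 3 of 485 mg/kg (adjusted p up to 0.0828).

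The unequal rise in signal was tested as a difference within each array, in which a constant offset between probe sets cancels. Whether the probe sets respond equally to a change in RNA was not tested. Akr7a3 minus Akr7a2 went from 0.12 ± 0.19 (SD, n = 6) in vehicle to 0.61 ± 0.16 at 48.5 mg/kg and 1.33 ± 0.08 at 485 mg/kg. All 6 arrays of each dose lay above all 6 vehicle arrays. The differences of 0.49 and 1.21 each had an exact two-sided permutation p of 0.00217, the smallest possible with 6 against 6, and an adjusted p of 0.00289 over 4 such tests. The other pair of related enzymes, Ephx1 minus Ephx2, changed by 1.56 at 485 mg/kg (exact permutation p = 0.00217, adjusted 0.00289) and by 0.68 at 48.5 mg/kg (exact permutation p = 0.446). Single Ephx2 arrays set the latter values: the change at 48.5 mg/kg was 1.22 without replicate 5 of that dose (exact permutation p = 0.00433) and 0.15 without vehicle replicate 3, and that at 485 mg/kg was 1.03 without vehicle replicate 3 (exact permutation p = 0.00433).

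**Figure D2:**
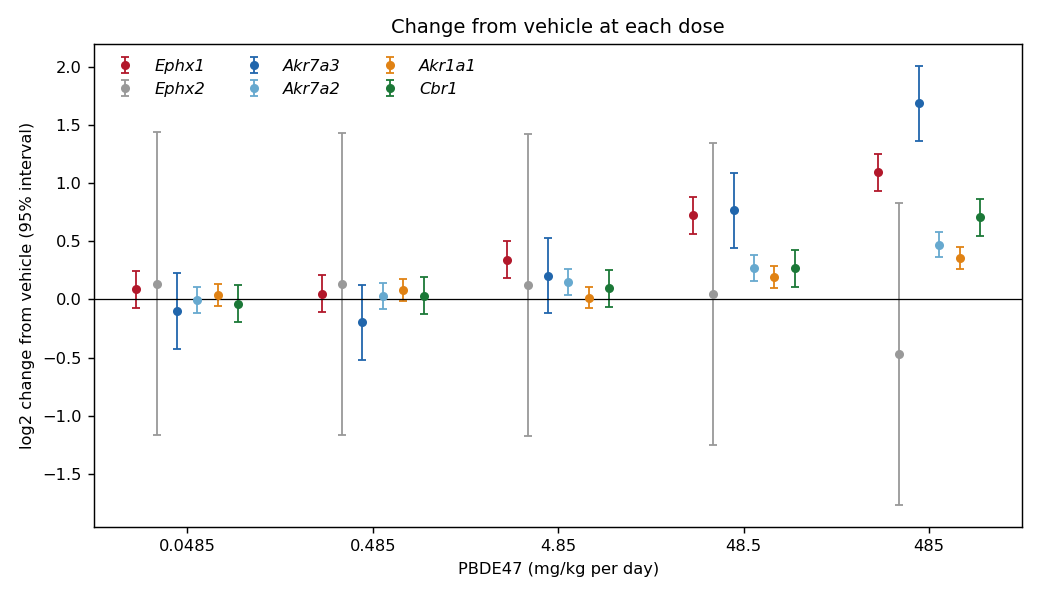
Log2 change of each gene from vehicle at each daily dose of PBDE47 (points), with the 95% interval from limma (bars; n = 6 arrays per group). At 485 mg/kg the points of the other 5 genes run from 1.68 for Akr7a3 to 0.36 for Akr1a1 with intervals above 0, while Ephx2 lies at -0.47 and its intervals are wide and include 0 at every dose.

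Akr1a1 had the smallest of the 5 rises at 485 mg/kg. The gene, which encodes an aldehyde reductase with a role in the synthesis of ascorbate from glucuronate in rodents, ran from 12.10 to 12.30 in vehicle (median 12.13), from 12.31 to 12.40 at 48.5 mg/kg (median 12.36) and from 12.46 to 12.61 at 485 mg/kg (median 12.50). These 3 groups did not overlap, although vehicle replicate 2, at 12.30, came close to the 48.5 mg/kg group. The range of 0.485 mg/kg did overlap that of 48.5 mg/kg. Replicates 5 and 6 of 0.485 mg/kg, at 12.314 and 12.3072, lay above the lowest 48.5 mg/kg array, at 12.3065. The changes from vehicle were 0.19 ± 0.05 (SE, n = 6 per group, limma adjusted p = 0.0120) at 48.5 mg/kg and 0.36 ± 0.05 (adjusted p = 2.56e-07) at 485 mg/kg. With only the 12 arrays compared, the adjusted p at 48.5 mg/kg was 0.0799.

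The steps between doses of Akr1a1 were called by a narrow margin. That from 4.85 to 48.5 mg/kg was 0.18 (limma adjusted p = 0.0440). The call was lost with only the 12 arrays compared (adjusted p = 0.164) and on leaving out any one of replicates 1 to 5 of 4.85 mg/kg or replicates 1, 2, 4, 5 or 6 of 48.5 mg/kg, with adjusted p up to 0.121. That from 48.5 to 485 mg/kg was 0.17 (adjusted p = 0.0259), and was lost with the 12 arrays (0.0940) or without replicate 3 or 4 of 48.5 mg/kg or replicate 2 of 485 mg/kg (up to 0.0792).

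Cbr1, the carbonyl reductase, rose mainly at the top dose. Its vehicle arrays lay between 7.10 and 7.24, with a median of 7.18. At 48.5 mg/kg they ran from 7.27 to 7.73 with a median of 7.34, and at 485 mg/kg from 7.74 to 8.06 with a median of 7.86. The arrays of 48.5 mg/kg spread widely, and the highest of them lay just below the lowest of 485 mg/kg. They overlapped the uncalled groups of 0.0485, 0.485 and 4.85 mg/kg. The highest arrays of 0.0485 and 4.85 mg/kg, each at 7.42, lay above the 48.5 mg/kg median. The highest array of 0.485 mg/kg was at 7.30. The change at 485 mg/kg was 0.70 ± 0.08 (SE, n = 6 per group; limma adjusted p = 1.37e-08), and the step from 48.5 mg/kg was 0.44 (adjusted p = 0.000338). The change at 48.5 mg/kg was 0.27 ± 0.08 with an adjusted p of 0.0480. That call was lost on leaving out any single vehicle array or replicate 1, 3 or 5 of 48.5 mg/kg (adjusted p up to 0.168). It was also lost with quantile normalization (adjusted p = 0.0942), the ordinary test (0.0519), array weights (0.0665) and only the 12 arrays compared (0.120).

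At the 3 lowest doses no gene of the 6 was called. At 0.0485 and 0.485 mg/kg, 0 of 6 were called higher or lower, as were 0% of all probe sets at each dose, although 1519 and 1381 probe sets had an unadjusted limma p below 0.05. Changes of the 6 genes at these doses lay between -0.20 and 0.14. At 4.85 mg/kg, 0 of 6 were called, where 0.0193% of probe sets were, all of them higher, and 2006 probe sets had an unadjusted p below 0.05. Between 4.85 and 48.5 mg/kg, 2 of 6 (Ephx1 and Akr1a1) were called higher, against 0.886% of probe sets, and between 48.5 and 485 mg/kg 5 of 6, against 2.55%. The arrays of these 2 genes did not overlap between 4.85 and 48.5 mg/kg, which held for 0.954% of probe sets. Between 48.5 and 485 mg/kg 4 of 6 did not overlap, against 1.45%.

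Within dose groups, Akr7a3 and Akr7a2 varied together from array to array. Deviations from the group mean were correlated over the 36 arrays for 15 gene pairs, with 100000 permutations within groups and adjustment over the 15. Akr7a3 and Akr7a2 had a Pearson r of 0.76 (permutation p = 1e-05, the smallest these draws can give, adjusted 0.00015) and a Spearman rho of 0.82 (permutation p = 1e-05, adjusted 0.00015). The r was 0.74 without the 2 arrays farthest from the median of Akr7a3, 0.84 over the 24 arrays of vehicle and the 3 lowest doses, and 0.66 over the 12 arrays of the 2 highest doses. The relation of this pair was thus positive in both dose ranges. Whether the probe sets of these related genes share signal was not tested. Ephx1 and Akr7a3 had r = 0.67 (permutation p = 0.00047, adjusted 0.00353) and rho = 0.56 (permutation p = 0.00266, adjusted 0.0200), with r = 0.58 without the 2 farthest arrays. For that pair r was 0.73 over the 24 arrays and -0.16 over the 12, so the relation was not seen at the highest doses, where the range of Ephx1 was narrow. Ephx1 and Akr7a2 had r = 0.44 (permutation p = 0.00905, adjusted 0.0453) and rho = 0.41 (permutation p = 0.0196, adjusted 0.0980), with 0.35 without the 2 farthest arrays and 0.63 and -0.47 in the lower and higher dose ranges. No other pair had an adjusted p below 0.05, and pairs with Ephx2 cannot be read because of its separate clusters.

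**Figure D3:**
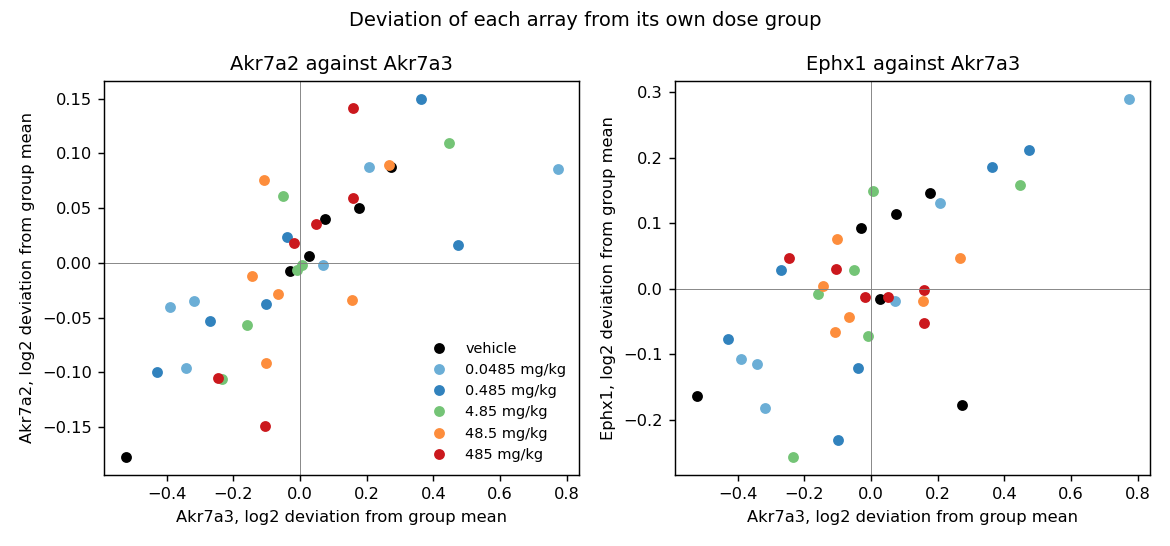
Deviation of each array from its own dose group's mean, in log2 units, for Akr7a2 (left) and Ephx1 (right) against Akr7a3; points are arrays, coloured by dose. Over the 36 arrays r is 0.76 for Akr7a2 with Akr7a3, and the points of 48.5 and 485 mg/kg lie flat in the panel of Ephx1.

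The genes whose values were most like each of the 6 over the 36 arrays were found among the other 14216 named genes by Pearson r, and their likeness is a description that dose shapes. For Ephx1 they were Gstm1 (r = 0.96), a glutathione transferase, Cyb5a (0.96), cytochrome b5, and Abcc3 (0.96), a conjugate exporter. Within dose groups the same 3 correlated at 0.63, 0.44 and 0.39. For Akr7a3 they were the glutathione transferase Gstt3 (r = 0.97, and 0.81 within groups), glutathione reductase, Gsr (0.95, and 0.60), and Akr7a2 (0.94, and 0.76). Akr7a2 was likewise closest to Gstt3 (0.95, and 0.74 within groups), then to Mcoln1, a lysosomal ion channel (0.94, and 0.73). For Akr1a1 they were Htatip2, the proteasome subunit Psmc5 and Flad1, which makes FAD, each at 0.91. For Cbr1 they were the transketolase Tkt, the palmitoyltransferase Zdhhc2 and Htatip2, each at 0.89 over the 36 arrays, but at 0.31, 0.18 and 0.16 within groups. Ephx2 had no gene as close: Plat reached 0.67, Pim1 0.62 and C1h11orf58 0.58, and its values rest on 5 arrays.

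Other genes of epoxide and carbonyl metabolism did not move as a block. Of 32 further genes listed, 29 were measured. At 4.85 mg/kg 0 were called, at 48.5 mg/kg 5 higher and 0 lower (2.57% and 0.821% of all probe sets), and at 485 mg/kg 9 higher and 5 lower (7.81% and 7.22%), with a median change of 0.03 against -0.01 for all probe sets. Nqo1, a quinone reductase, went from a median of 7.28 (6.99 to 7.56) in vehicle to 8.69 (8.40 to 9.05) at 48.5 mg/kg and to between 9.89 and 10.24 at 485 mg/kg. Its changes from vehicle were 1.40 ± 0.12 (SE, n = 6 per group; limma adjusted p = 7.80e-10) and 2.73 ± 0.12 (adjusted p = 1.76e-18), and the ranges of all 3 groups were apart. Akr1c14, a hydroxysteroid dehydrogenase of liver, rose by 0.63 ± 0.08 (adjusted p = 6.60e-07) and 0.90 ± 0.08 (adjusted p = 1.95e-11). Akr1e2 (0.51), Cbr4 (0.49), Akr1d1, the steroid 5-beta reductase of bile acid synthesis (0.46), Dhrs3 (0.41), Ptgr1 (0.37) and Dhrs1 (0.32) also rose at 485 mg/kg. Akr1b1, the aldose reductase (-0.32), Akr1c13 (-0.30), Akr1c19 (-0.27), Hsd17b10 (-0.23) and Hsd11b1 (-0.17) fell. Cbr3, the nearest relative of Cbr1, changed by 0.04 ± 0.13 (adjusted p = 0.900). Akr1c genes are close copies of each other, and their probe sets may share signal.

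Akr1b7, an aldo-keto reductase of steroidogenic tissue, split within the top dose group. Its vehicle arrays lay between 3.05 and 3.93, below the array medians, and no array of the 4 lower doses exceeded 3.93. At 485 mg/kg the 6 arrays read 7.60, 3.91, 3.58, 7.92, 4.77 and 9.18 (replicates 1 to 6). Thus 3 of 6 were high, 1 lay between and 2 were within the vehicle range. The mean change was 2.72 ± 0.53 (SE, n = 6 per group; limma adjusted p = 0.000253), and 2.11 without replicate 6. A fold is not exact from so dim a start.

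**Figure D4:**
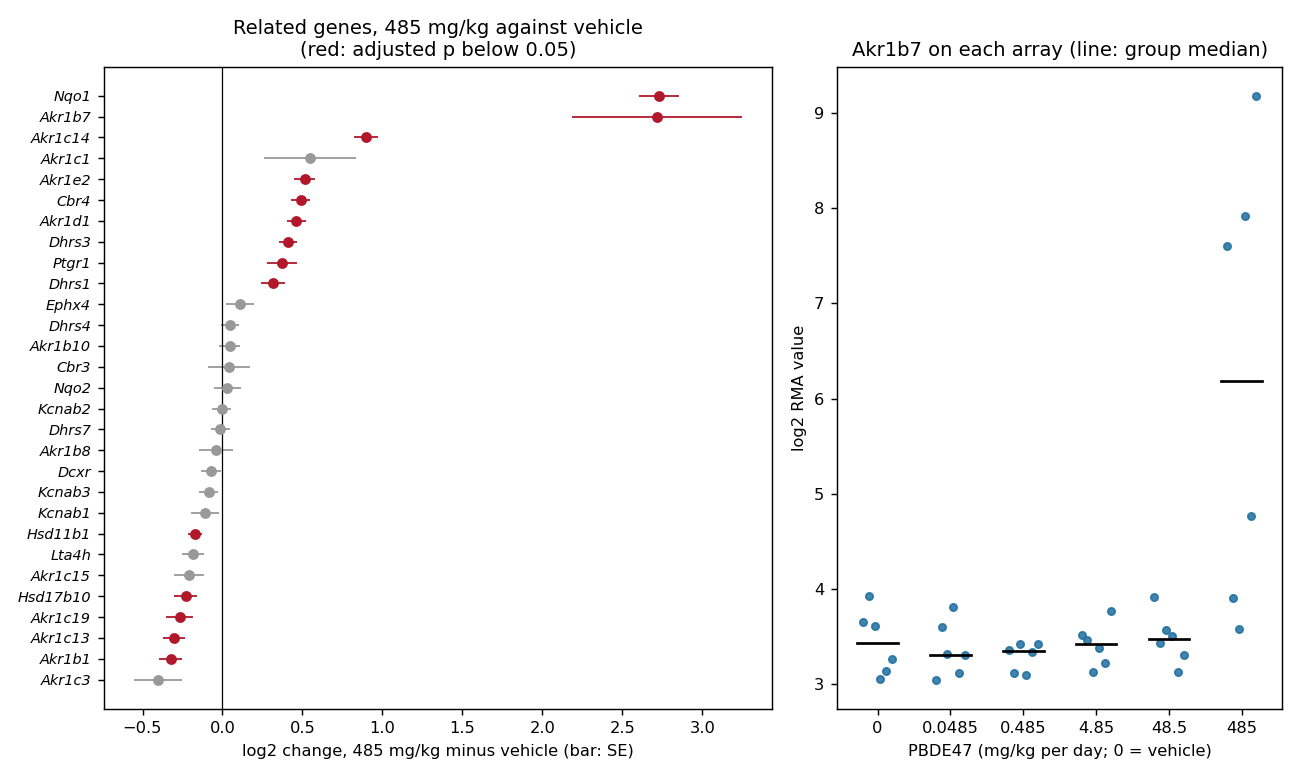
Left, log2 change at 485 mg/kg against vehicle for the 29 measured further genes of epoxide and carbonyl metabolism (points; bars show SE, n = 6 per group; red marks an adjusted p below 0.05). Right, Akr1b7 on each array by daily dose (points; lines show group medians), with 3 of the 6 arrays of 485 mg/kg above 7.

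Genes upstream and alongside were read from 3 further lists. Of 18 measured NRF2 targets other than the 6 genes, 1 was called higher at 4.85 mg/kg (Abcc3), 8 at 48.5 mg/kg and 17 at 485 mg/kg, against 0.0193%, 2.57% and 7.81% of all probe sets, with 0 lower, and medians of 0.37 and 0.84 at the 2 highest doses; Nqo1 is in this list and the preceding one. The targets called at 48.5 mg/kg included Abcc3 (3.27), Gsta3, a glutathione transferase (1.99), Gsr (0.91), Me1, which makes NADPH (0.76), and Tkt (0.42). Whether NRF2 itself drove these changes was not tested, and no list of CAR or PXR targets was read. Of 8 measured arachidonic acid epoxygenases, which make the fatty acid epoxides that Ephx2 hydrolyses, 0 were called at 48.5 mg/kg, and 2 higher and 1 lower at 485 mg/kg, where 7.81% and 7.22% of probe sets were called higher and lower. Cyp2j4 rose there by 0.75 ± 0.09 (limma adjusted p = 2.90e-08), and its lowest array of 485 mg/kg, 10.05, lay above the highest of vehicle, 9.84. Cyp2j10 rose by 0.29 ± 0.08 (adjusted p = 0.0125, and 0.0547 without vehicle replicate 5), and Cyp2c13, whose probe set may also detect related genes, fell by 0.23 ± 0.04 (adjusted p = 6.99e-05). Of 14 measured PPARA targets, the group to which Ephx2 is often counted in rodents, 0 were called at 48.5 mg/kg, and 4 higher and 4 lower at 485 mg/kg, against the same shares of all probe sets. Among these Acot2 rose by 0.69 and Cpt2 by 0.49, and Cpt1a changed by -0.83. Cyp4a1 changed by -0.47 (adjusted p = 0.0460), a call lost with median centring (0.0553), with the ordinary test (0.0675), with trend and robust settings (0.0646), with the 12 arrays alone (0.0957) and on leaving out any one of vehicle replicates 1, 3, 4, 5 and 6 or replicates 1, 2, 3 and 5 of 485 mg/kg (up to 0.159).

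Some cell type markers moved with dose as well. Of all probe sets, 0.821% were called lower and 2.57% higher at 48.5 mg/kg. The shares at 485 mg/kg were 7.22% lower and 7.81% higher. At 485 mg/kg 7 of 8 hepatocyte markers were called lower (median -0.16), and their mean level per array was 14.15 to 14.22. Periportal hepatocyte markers were lower for 4 of 8 at 48.5 mg/kg (median -0.41) and 6 of 8 at 485 mg/kg (median -0.76), with array means of 11.02 to 11.41 in vehicle and 10.51 to 10.81 at 485 mg/kg. Of 9 pericentral markers 1 was higher and 3 lower at 485 mg/kg (median -0.24; array means of 10.01 to 10.32 in vehicle and 9.50 to 9.87 at 485 mg/kg). Kupffer cell markers were lower for 4 of 7 (8.72 to 8.93 in vehicle and 8.06 to 8.63 at 485 mg/kg) and erythroid markers for 3 of 4 (7.30 to 7.69 and 6.68 to 7.04). Endothelial markers were lower for 2 of 5 and T and NK cell markers for 2 of 7, while 1 of 5 cholangiocyte markers was higher and 0 of 7 stellate markers were called, and the array means of these 4 lists overlapped between vehicle and 485 mg/kg. The other calls among markers at 48.5 mg/kg were 2 of 9 pericentral markers lower, Glul (-0.43) and Oat (-1.09), 1 hepatocyte marker lower (Fgb, -0.14), 1 T and NK cell marker lower (Cd8a, -0.43), 1 erythroid marker lower (Car1, -0.66) and 1 cholangiocyte marker higher (Epcam, 0.40). In bulk liver, fewer cells of a type and less RNA per cell cannot be told apart. The part of these shifts in the rise of the 5 genes was not tested.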

How the data were processed

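Liver RNA was measured on 36 arrays, 6 per group, grouped by the labels. The deposited values are log2 signals, 1 per probe set and array, which the authors made with RMA and the R package affy, per the submitters' processing notes; versions are not given in the sources used here. RMA normalizes arrays to 1 shared distribution, so values are relative to it. Arrays have no read depth, and their number limits the precision. Of 31099 probe sets, 57 controls were left out and 31042 tested, dim ones included. The platform annotation gave 20826 of these 1 gene and 436 several. Entrez identifiers of 20758 matched the RefSeq table of GRCr8.

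Group means over the 36 arrays were fitted in 1 linear model with limma 3.58.1 under R 4.3.3 (residual degrees of freedom 30, prior 5.26). The comparisons were each dose with vehicle, 48.5 with 4.85 and 485 with 48.5 mg/kg, two-sided, with Benjamini-Hochberg adjustment over 31042 probe sets. The within-array differences between related genes were compared between dose and vehicle groups by exact permutation of the difference in group means (scipy 1.17.1). The procedure was tested on simulated data. A gene with several probe sets was represented by the one with the highest mean. Besides the 6 genes, the text names list genes by size of change among those called, the 3 genes most like each of the 6, and markers; called list genes beyond the largest 4, Cbr3, and the genes named for Ephx2-like splits were chosen after their values were seen. The genes and lists were chosen with earlier results of these data known. The design text names R/maanova, which was not used here; the ordinary test without moderation stood in. Replicate numbers were not taken as pairing the arrays: same-numbered arrays of different groups had a mean correlation of deviations of 0.0194 over 90 pairs, with 19 above 0.1, against -0.0038 for arrays of other numbers. Alternatives were a replicate block, quantile normalization, median centring, a filter keeping 15512 probe sets, the ordinary test, trend and robust settings, array weights, only the 12 arrays compared, and each array left out.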

Additional observations from a re-analysis of the deposited data

Results flagged for a closer look

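Within a group of 6 arrays, a value was singled out where its gap to the nearest other array was more than Dixon's 95% limit as a share of the group's range. Chance alone flags about 5% of groups. Of 36 groups of the 6 genes 8 were flagged, and of 66 groups of the list genes picked by size of change 5. Other genes named in the text were not screened in this way.

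Ephx2 gave 5 of these, each the highest of its group: 8.94 in vehicle replicate 3 (next 6.14), 9.40 in replicate 2 of 0.0485 mg/kg (next 6.16), 9.12 in replicate 3 of 0.485 mg/kg (next 6.21), 9.40 in replicate 3 of 4.85 mg/kg (next 6.22) and 9.17 in replicate 5 of 48.5 mg/kg (next 6.21). Akr7a3 was high, at 11.93, in replicate 4 of 4.85 mg/kg (next 11.48). Akr7a2 was low in vehicle replicate 3, at 10.98 (next 11.15), an array that was also the lowest of its group for Akr7a3. Akr1a1 was high in vehicle replicate 2, at 12.30 (next 12.17).

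Among the further genes, Akr1c14 was low in vehicle replicate 2, at 11.76, and Akr1e2 was low in replicate 1 of 0.0485 mg/kg, at 9.94 (next 10.29). Cyp2c13 was low in replicate 3 of 0.485 mg/kg, at 13.67 (next 13.76). Cpt1a was high in replicate 2 of 4.85 mg/kg, at 11.57 (next 11.28), and Acot2 in replicate 4 of 485 mg/kg, at 10.42 (next 10.04).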

How the results depend on the processing

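At 485 mg/kg 5 of the 6 genes were called in every alternative listed, and the F test called 5 with the replicate block, quantile normalization, median centring, the filter and each array left out. At 48.5 mg/kg the count of 5 fell to 3 with only the 12 arrays compared and ranged from 4 to 5 without single arrays. Between 4.85 and 48.5 mg/kg the count of 2 ranged from 1 to 2 without single arrays and was 3 with the filter on low values, and between 48.5 and 485 mg/kg the count of 5 was 3 with the 12 arrays and ranged from 3 to 5. With the 12 arrays alone, probe sets called were 1 at 4.85 mg/kg (main 6), 556 at 48.5 mg/kg (main 1052), 171 between 4.85 and 48.5 mg/kg (main 367) and 880 between 48.5 and 485 mg/kg (main 1509); this setting uses fewer arrays. The filter on low values called 584 between 4.85 and 48.5 mg/kg; the cause was not tested. Without single arrays the counts ranged from 678 to 1138 at 48.5 mg/kg, lowest without replicate 5 of that dose, from 155 to 437 between 4.85 and 48.5 mg/kg, and from 4130 to 4549 at 485 mg/kg. Ephx1 minus Ephx2 at 48.5 mg/kg ranged from 0.15 to 1.22.

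With the replicate number as a block, 1 gene was called between 4.85 and 48.5 mg/kg, since Akr1a1 had an adjusted p of 0.0604 in limma; Cbr1 at 48.5 mg/kg had 0.0562 and Cyp4a1 at 485 mg/kg 0.0659. Block values were computed for the 6 genes and 11 list genes, and none of their other calls changed. Of the 36 arrays, 12 were closest, among arrays of the other groups, to an array of their own number. The count expected without pairing was not worked out, so some likeness between same-numbered arrays is not excluded.

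Values that changed sign were all uncalled. Akr7a2 at 0.0485 mg/kg was 0.0071 with median centring and -0.040 to 0.014 without single arrays, and at 0.485 mg/kg -0.0045 to 0.051. Cbr1 at 0.0485 mg/kg ranged from -0.092 to 0.0026 and Akr1a1 at 4.85 mg/kg from -0.00098 to 0.044. With array weights Ephx2 was -0.14 at 0.0485 and -0.15 at 48.5 mg/kg. Without single arrays it ranged from -0.42 to 0.63, -0.37 to 0.62, -0.44 to 0.62, -0.49 to 0.54 and -0.60 to 0.026 over the rising doses, from -0.61 to 0.48 between 4.85 and 48.5 mg/kg and from -0.67 to 0.019 between 48.5 and 485 mg/kg. Averaging the probe sets of a gene was not run, because each of the 6 genes has 1. Quantile normalization and median centring moved the median of all probe sets at 485 mg/kg from -0.01 to -0.0024 and 0.0052.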

Other observations

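Of the 9 probe sets whose ordered values held an empty interval at least as wide as that of Ephx2, 6 have a gene name. Besides Ephx2 and Akr1b7 these were Ubd, a ubiquitin-like protein, with 6 arrays below the interval, Abhd3, a phospholipase, with 5 arrays above it, and 2 probe sets of Ugt2b, a glucuronosyltransferase, with 3 arrays below it. The 3 low arrays of Ugt2b were the same for both of its probe sets: vehicle replicate 2, replicate 6 of 0.485 mg/kg and replicate 4 of 48.5 mg/kg. The intervals were 7.41 and 5.00 wide on the log2 scale. The 5 high arrays of Abhd3 included vehicle replicate 3 and replicate 2 of 0.0485 mg/kg, which were also high for Ephx2, and 3 that were not. The 3 high arrays of Akr1b7 all belonged to 485 mg/kg, whereas those of Ephx2 came from every group except that one. These probe sets were chosen after their values were seen, and no test was made between such sets of arrays.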
